A study of Mus musculus with 6 samples.

Results

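The 10 genes described here were Axin2, Lgr5, Tbx3, Rnf43, Znrf3, Nkd1, Rhbg, Lect2, Rgn and Ctnnb1, a set of Wnt pathway and Wnt-dependent genes of pericentral hepatocytes that was chosen by name. All 10 had a row in the count table of 15454 genes, and all 10 were among the 12411 genes with enough counts to be tested. The libraries came from livers of male C57BL/6 mice aged 8 to 10 weeks. Every mouse underwent warm ischemia of 75% of the liver followed by reperfusion (I/R). The 3 mice of the I/R group were given vehicle, and the 3 mice of the I/R+Rk2 group were given Rk2, a ginsenoside, that is, a triterpenoid saponin of ginseng, in the same vehicle. The doses came 2 days ahead of the operation and at the start of reperfusion. Unoperated or sham-operated livers were not analysed here, so each difference was one between injured livers with and without Rk2. The RNA came from liver tissue that holds many cell types, so fewer cells of a type and less RNA per cell cannot be told apart.

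Wnt ligands and R-spondins are released mainly by endothelial cells around the central vein and act on the nearest hepatocytes. There they stabilize β-catenin, which enters the nucleus, binds TCF/LEF factors and switches on the pericentral program of glutamine synthesis, ammonium handling and cytochrome P450 metabolism. A part of the target genes encodes feedback regulators of the pathway itself, and their transcript levels are widely used as a readout of its activity.

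Of the 10 genes, only Rgn passed the test between the groups, and it was higher in I/R+Rk2. This was 1 of 10, whereas 43.9% of all genes tested passed at an adjusted p below 0.05 in edgeR's quasi-likelihood test with Benjamini-Hochberg adjustment. Of all genes tested, 20.3% passed with a higher and 23.7% with a lower level in I/R+Rk2. No member also had a fold change above 2, a criterion that 14.6% of all genes tested met, 3.17% with a higher and 11.4% with a lower level in I/R+Rk2. The same 1 member passed at an unadjusted p below 0.05, and DESeq2 likewise called 1 member and none with a fold change above 2. The estimate was above 0 in 7 members and below 0 in 3, and the median log2 fold change (I/R+Rk2 over I/R, the direction used throughout) was 0.30, beside -0.01 over all genes tested. That median ranged from 0.14 to 0.46 when each library was left out in turn, so its size depended on single libraries. Only in Rgn did the values of the 2 groups not overlap, whereas 57.4% of all genes tested had groups that did not overlap.

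**Figure D1:**
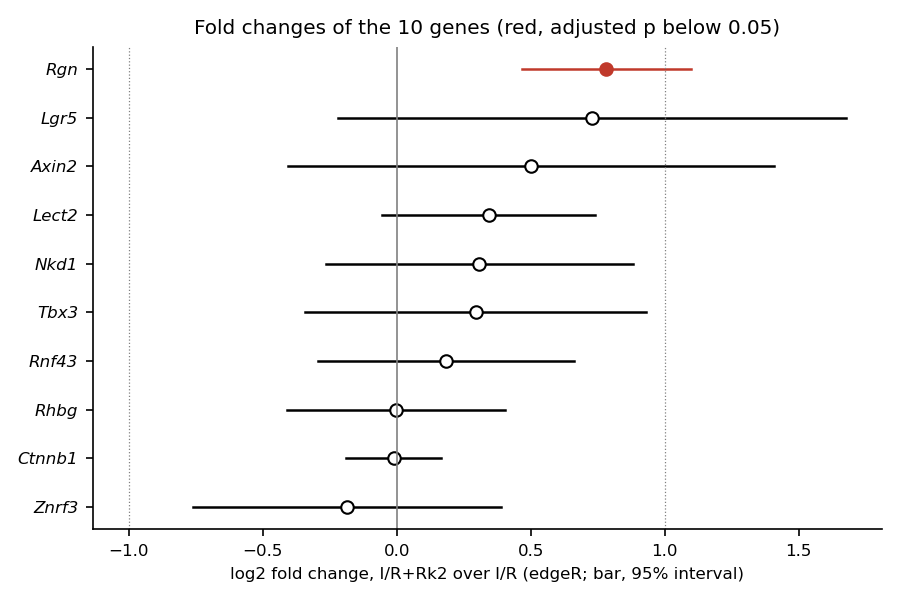
Log2 fold change of each of the 10 genes (I/R+Rk2 over I/R) on the horizontal axis, with points for edgeR's estimate and bars for its 95% interval. The interval lies wholly above 0 for Rgn, from 0.47 to 1.10, and includes 0 for the other genes.

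Levels per length, as FPKM (fragments scaled to transcript length and to mapped fragments), were highest for Rgn, at 349 ± 24.4 in I/R and 539 ± 60.8 in I/R+Rk2 (SD, n = 3 each). Lect2 followed at 59.8 ± 8.72 and 68.3 ± 14.0 FPKM, and Ctnnb1 at 51.6 ± 4.01 and 42.4 ± 2.21 FPKM. The remaining 7 genes lay well below these. Rnf43, Rhbg and Tbx3 had mean levels between 1.85 and 4.47 FPKM in either group. Znrf3, Nkd1, Axin2 and Lgr5 were the lowest, with group means between 0.318 and 1.10 FPKM. In I/R, each gene overlapped its next lower neighbour in this order except Rgn with Lect2 and Ctnnb1 with Rnf43. In I/R+Rk2, Lect2 with Ctnnb1 and Tbx3 with Znrf3 did not overlap either.

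**Figure D2:**
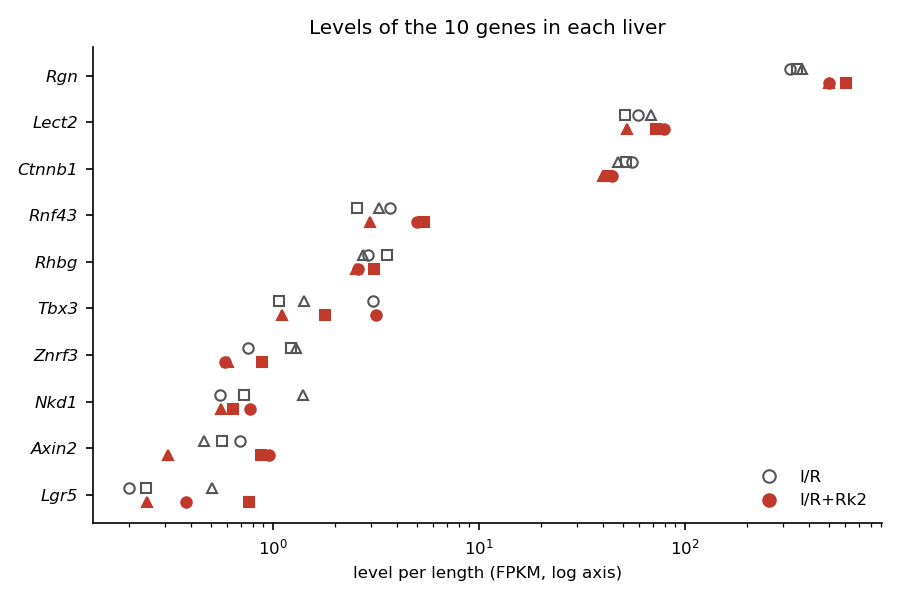
Level per length of each of the 10 genes in the 6 libraries, in FPKM on a log axis, with I/R and I/R+Rk2 libraries in separate colours. Rgn lies between 324 and 609 FPKM and Lgr5, the lowest, between 0.201 and 0.766 FPKM.

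Axin2 encodes a scaffold of the β-catenin destruction complex and is itself switched on by β-catenin, which makes it the most general readout of the pathway. It lies on the plus strand of chromosome 11 at 108920349 to 108950783 (GRCm38, ENSMUSG00000000142), and 209 bases of its exons are shared with the antisense gene Gm11670. It had 53, 46 and 52 counts in the I/R libraries and 107, 108 and 25 counts in the I/R+Rk2 libraries. As normalised counts (CPM, scaled to library size with TMM factors), these were 2.76, 1.80 and 2.07 in I/R and 4.50, 3.20 and 1.54 CPM in I/R+Rk2. Replicates 1 and 2 of I/R+Rk2 thus lay above all 3 I/R libraries, while replicate 3 lay below them. The log2 fold change was 0.50 ± 0.39 (SE), with a 95% interval from -0.40 to 1.41 and an adjusted p of 0.324 in edgeR's test. Without I/R+Rk2 replicate 3 it was 0.81, with an adjusted p of 0.0633, while over the libraries left out it went as low as 0.13. Over all alternatives the log2 fold change ranged from 0.11 to 0.81 and the adjusted p from 0.0633 to 0.794.

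Lgr5 encodes a receptor for R-spondins and marks the hepatocytes closest to the central vein. It lies on the minus strand of chromosome 10 at 115450311 to 115587780 (ENSMUSG00000020140). It was the least abundant member, with 17, 31 and 47 counts in I/R and 47, 108 and 22 counts in I/R+Rk2. In CPM, these were 0.886, 1.21 and 1.87 against 1.98, 3.20 and 1.35, so that replicate 3 of I/R+Rk2 lay within the I/R range and the other two lay above it. The log2 fold change was 0.73 ± 0.40 (SE), with an interval from -0.22 to 1.68 and an adjusted p of 0.179 in edgeR's test. The interval included 0 and reached an increase of over 2-fold.

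Rnf43 and Znrf3 encode related transmembrane ubiquitin ligases that remove Frizzled receptors from the cell surface and so limit the response to Wnt, and R-spondin bound to LGR receptors clears them. Both lie on chromosome 11, Rnf43 on the plus strand at 87662722 to 87735539 (ENSMUSG00000034177) and Znrf3 on the minus strand at 5276324 to 5444847 (ENSMUSG00000041961). Rnf43 was at 6.67, 10.2 and 9.09 CPM in I/R and at 11.6, 9.98 and 7.92 CPM in I/R+Rk2, with overlapping groups. Znrf3 was at 4.54, 5.07 and 4.74 CPM in I/R and at 3.24, 5.77 and 3.50 CPM in I/R+Rk2. For Znrf3 the I/R+Rk2 libraries lay on both sides of the narrow I/R range, replicates 1 and 3 below it and replicate 2 above it. The estimates had opposite signs, 0.18 ± 0.20 for Rnf43 and -0.18 ± 0.24 for Znrf3 (log2, SE), and neither passed (adjusted p of 0.495 and 0.567 in edgeR's test). The intervals ran from -0.30 to 0.66 for Rnf43 and from -0.76 to 0.39 for Znrf3.

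Nkd1 encodes a Dishevelled-binding inhibitor of the pathway that is induced by Wnt signaling. It lies on the plus strand of chromosome 8 at 88521354 to 88594884 (ENSMUSG00000031661). Its values were 1.62, 2.30 and 2.23 CPM in I/R and 2.61, 2.96 and 2.03 CPM in I/R+Rk2. Replicates 1 and 2 of I/R+Rk2 lay above the I/R libraries and replicate 3 lay within their range. The log2 fold change was 0.31 ± 0.24 (SE), with an interval from -0.26 to 0.88 and an adjusted p of 0.337 in edgeR's test. The FPKM of Nkd1 went the other way, at 0.895 ± 0.448 in I/R and 0.658 ± 0.108 in I/R+Rk2, and limma on unfiltered log2(FPKM + 1) gave -0.17 (adjusted p of 0.501).

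Tbx3 encodes a T-box transcription factor that is expressed in pericentral hepatocytes. It lies on the plus strand of chromosome 5 at 119670669 to 119684724 (ENSMUSG00000018604), and 115 bases of its exons are shared with the antisense gene Tbx3os1. It was at 9.23, 5.15 and 7.06 CPM in I/R and at 10.3, 9.71 and 6.02 CPM in I/R+Rk2. Replicates 1 and 2 of I/R+Rk2 lay above the highest I/R library by a small margin, and replicate 3 lay near the lowest. The log2 fold change was 0.29 ± 0.27 (SE), with an interval from -0.34 to 0.93 and an adjusted p of 0.407 in edgeR's test.

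Rhbg and Lect2 are targets expressed in hepatocytes near the central vein. Rhbg encodes an ammonium transporter of the cell membrane and lies on the minus strand of chromosome 3 at 88242874 to 88254709 (ENSMUSG00000104445). It was the most even of the low-abundance members, at 5.27, 7.26 and 5.62 CPM in I/R and 5.55, 6.78 and 5.77 CPM in I/R+Rk2. The I/R+Rk2 values all lay inside the I/R range, and the interval of the log2 fold change ran from -0.41 to 0.40 (adjusted p of 0.992 in edgeR's test). The gene model Gm38392 on the same strand shares 1190 bases of exon with Rhbg and is listed at 0 in the FPKM table, so the level of Rhbg may include reads of both.

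Lect2 encodes a protein that hepatocytes secrete into the blood and lies on the minus strand of chromosome 13 at 56542464 to 56548502 (ENSMUSG00000021539). Its values were 48.9, 46.9 and 63.3 CPM in I/R and 76.1, 72.0 and 53.5 CPM in I/R+Rk2. Replicates 1 and 2 of I/R+Rk2 lay above all I/R libraries, and replicate 3 lay between I/R replicates 1 and 3. The log2 fold change was 0.34 ± 0.17 (SE), with an interval from -0.06 to 0.74 and an adjusted p of 0.140 in edgeR's test. Without I/R+Rk2 replicate 3 it was 0.49 with an adjusted p of 0.0456, the only alternative under which a second member passed, and over all alternatives the adjusted p ranged from 0.0456 to 0.738.

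Rgn, which encodes regucalcin, a calcium-binding protein and gluconolactonase of hepatocytes, was the member that rose. It lies on the plus strand of chromosome X at 20549787 to 20562089 (ENSMUSG00000023070). It had 487, 586 and 629 CPM in I/R and 885, 1103 and 937 CPM in I/R+Rk2. Every I/R+Rk2 library lay above every I/R library. The means were 567 ± 73.1 and 975 ± 114 CPM (SD, n = 3 each), a 1.72-fold difference with a log2 fold change of 0.78 ± 0.13 (SE) and an adjusted p of 0.00404 in edgeR's test. Rgn passed under all 17 alternatives, with log2 fold changes from 0.60 to 0.86 and adjusted p from 1.9e-06 to 0.0166. The summed level of 12 general hepatocyte markers was also higher in I/R+Rk2, at 119000 to 141000 CPM against 85300 to 95400 CPM. Most of this sum was albumin (Alb), at 68876 to 88052 CPM against 44262 to 52469 CPM. The markers went both ways, 6 rising and 2 falling (66.7% called, beside 43.9% of all genes tested). The part of the hepatocyte level in the difference of Rgn was not tested.

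**Figure D3:**
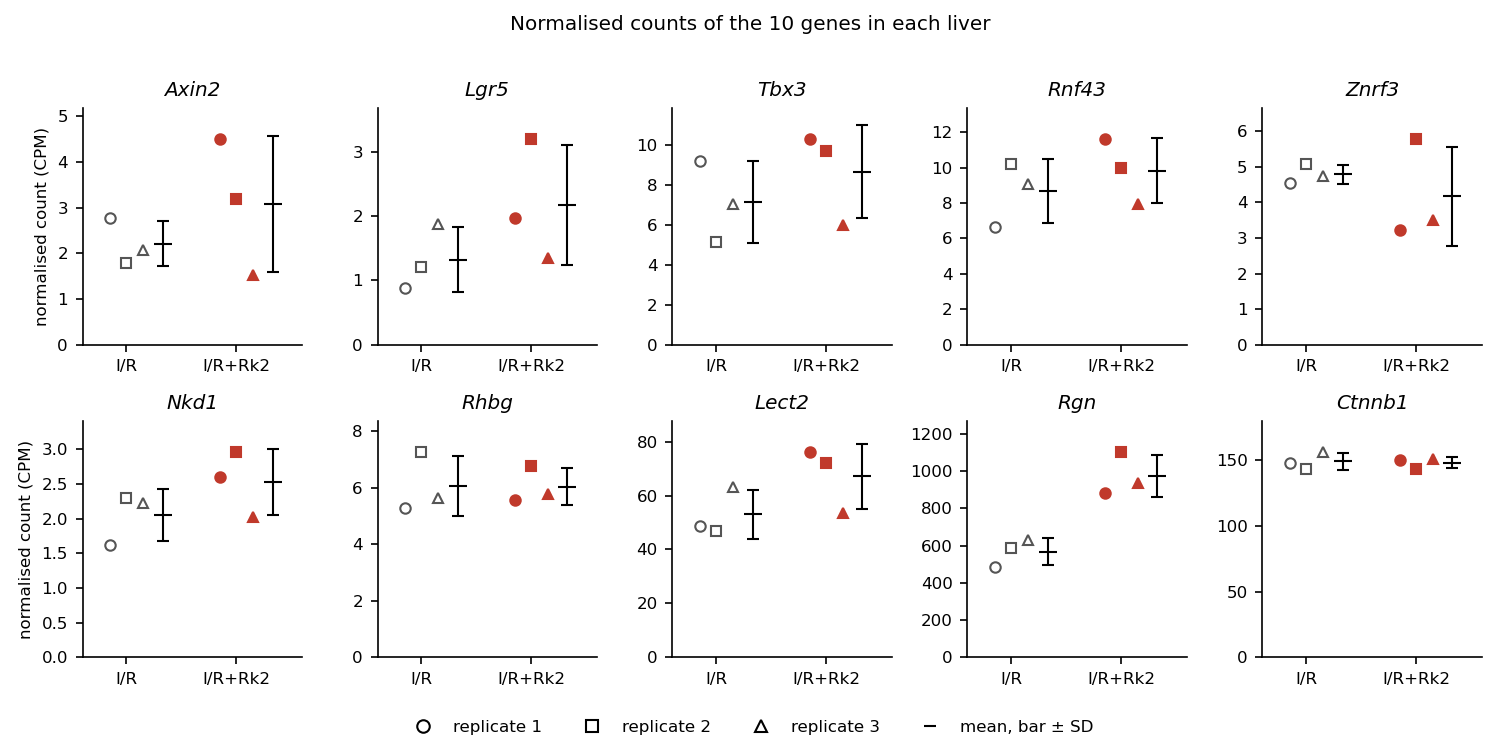
Normalised count (CPM) of each of the 10 genes in every library, a panel for each gene, with I/R and I/R+Rk2 side by side and the mean and SD of each group. Only in Rgn, at 487 to 629 CPM against 885 to 1103 CPM, do the groups not overlap, and in Axin2, Lgr5 and Lect2 replicate 3 of I/R+Rk2 is the lowest of its group.

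Ctnnb1 encodes β-catenin, the transcriptional effector of the pathway, which is controlled mainly through protein stability. It lies on the plus strand of chromosome 9 at 120929216 to 120960507 (ENSMUSG00000006932). It was at 148, 143 and 156 CPM in I/R and at 149.5, 143 and 151 CPM in I/R+Rk2. The groups lay within the same range, and the log2 fold change was -0.01 ± 0.08 (SE), with an interval from -0.19 to 0.17 and an adjusted p of 0.911 in edgeR's test. This was the narrowest interval of the 10 genes. The deposited FPKM of the same libraries, which were not scaled with TMM factors, differed from this. They were 55.4, 51.9 and 47.4 in I/R and 44.6, 42.5 and 40.2 in I/R+Rk2, groups that did not overlap. On log2(FPKM + 1) without a filter, limma gave a log2 fold change of -0.27 and an adjusted p of 0.0559 for Ctnnb1, short of the threshold, and the adjusted p over all alternatives ranged from 0.0559 to 0.998. Over all genes, 72.8% of the calls of that fit were lower in I/R+Rk2, beside 53.9% in edgeR's fit. The part of scaling in the FPKM of Ctnnb1 was not tested. Ulk4, an antisense gene that shares 759 bases of exon with Ctnnb1, had 4 to 19 counts in the I/R libraries and 0 in the I/R+Rk2 libraries, against 2452 to 4835 counts for Ctnnb1.

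The region around the start of the gene was read for the members with a RefSeq window (GRCm38.p6, 250 bases before to 50 after the start), which were Axin2, Rnf43, Nkd1, Lect2 and Ctnnb1. The motifs searched on both strands were CTTTGAT, a closely related variant written CTTTGTT, a further variant written CTTTGAA and the remaining form CTTTGTA, all versions of the core site bound by TCF/LEF factors. Among all 32851 windows, 16.9% held a match, and among the 7 windows of these members 1 did (14.3%). Axin2 and Lect2 are shown, the first as the standard target gene and the second as the only member whose window held a match. Axin2 is at chr11:108920099-108920398 on the plus strand and Lect2 at chr13:56548489-56548788 on the minus strand, both written 5′ to 3′ along the gene, with the match in capitals.
Axin2: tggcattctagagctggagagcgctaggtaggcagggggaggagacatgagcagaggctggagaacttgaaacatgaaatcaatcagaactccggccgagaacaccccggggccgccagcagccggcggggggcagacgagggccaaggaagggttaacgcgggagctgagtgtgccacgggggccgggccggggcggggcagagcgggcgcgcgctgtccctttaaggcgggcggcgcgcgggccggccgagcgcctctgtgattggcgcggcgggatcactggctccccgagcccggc
Lect2: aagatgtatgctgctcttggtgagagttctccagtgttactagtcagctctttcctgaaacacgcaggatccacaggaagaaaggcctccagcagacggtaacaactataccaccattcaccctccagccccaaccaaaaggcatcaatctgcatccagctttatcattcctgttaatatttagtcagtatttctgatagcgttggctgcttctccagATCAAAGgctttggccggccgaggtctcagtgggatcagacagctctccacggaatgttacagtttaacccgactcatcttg
The match in Lect2 is CTTTGAT on the opposite strand, 32 bases before the start. A match is a run of letters and not a measured binding site, and regions outside these windows were not read.

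The 6 libraries did not contribute evenly to these values. Replicate 3 of I/R+Rk2 was the lowest of its group in 6 of the 10 genes (Axin2, Lgr5, Tbx3, Rnf43, Nkd1 and Lect2), whereas it was the lowest in 39.5% of all genes tested. Among 25 other pericentral hepatocyte genes it was the lowest in 14 (56%), and among 21 periportal genes in 3 (14.3%). A high share was not limited to pericentral genes, since it was the lowest in 62.5% of the endothelial and 68.8% of the monocyte and neutrophil markers. In the other group, I/R replicate 1 was likewise the lowest in 6 of the 10 genes, whereas it was the lowest in 33.5% of all genes tested. It was also the lowest of the I/R libraries in 16 of the 25 other pericentral genes (64%) and in 16 of the 21 periportal genes (76.2%). The mean log2(CPM + 1) over the 10 genes was 3.74, 3.81 and 3.90 in I/R and 4.11, 4.22 and 3.80 in I/R+Rk2. On this scale replicates 1 and 2 of I/R+Rk2 lay above all I/R libraries and replicate 3 lay inside their range. The median log2 fold change of the 10 genes was 0.46 when I/R+Rk2 replicate 3 was left out, 0.235 when I/R replicate 1 was and 0.14 when the first I/R+Rk2 library was. I/R replicate 1 and I/R+Rk2 replicate 3 had the smallest totals of the 6 libraries, 16809613 and 17816979 counts in a range of up to 35618074, and the part of depth in these values was not tested.

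The genes upstream of the members were read next. Of 19 Wnt ligands, 5 had enough counts to be tested, and 2 of these passed (40%, beside 43.9% of all genes tested). Wnt2, a ligand of central vein endothelial cells, rose from 0.920 ± 0.254 to 2.39 ± 0.891 CPM, with a log2 fold change of 1.40 ± 0.36 (SE) and an adjusted p of 0.0184 in edgeR's test. Its call was lost when I/R replicate 3 (adjusted p of 0.0619) or I/R+Rk2 replicate 2 (0.0674) was left out, and the list then held 1 called ligand in place of 2. The call was also lost with limma on unfiltered log2(FPKM + 1), which gave a log2 fold change of 0.46 (adjusted p of 0.0584). Over all alternatives the adjusted p of Wnt2 ranged from 0.00530 to 0.0674. Wnt2 had only 19, 29 and 16 counts in the I/R libraries. Wnt5b, usually a β-catenin-independent ligand, rose from 1.86 ± 0.134 to 3.55 ± 0.578 CPM (adjusted p of 0.0102, but 0.0558 with limma on log2(FPKM + 0.1)), while Wnt9b was at 0.820 ± 0.278 and 0.863 ± 0.167 CPM (adjusted p of 0.917). Of 3 tested genes for R-spondins and Wnt secretion, only Rspo3, an R-spondin of the central vein, passed (33.3%), and it was lower. It had 7.61, 6.40 and 7.49 CPM in I/R and 2.31, 2.93 and 2.03 CPM in I/R+Rk2, and fell by 1.55 ± 0.19 (SE) on the log2 scale (adjusted p of 0.00120 in edgeR's test). The groups of Rspo3 did not overlap, and it passed under all 17 alternatives. The summed level of 16 liver endothelial markers was lower in I/R+Rk2, at 264 to 313 CPM against 352 to 368 CPM. The markers went both ways, 4 rising and 6 falling (62.5% called), with a median log2 fold change of -0.01. Pecam1 was among those that fell, by 0.63 on the log2 scale (adjusted p of 0.00664 in edgeR's test). Hepatic stellate markers were lower as well, with 7 of 11 falling and a median log2 fold change of -0.61. The part of endothelial and stellate cells in the values of Wnt2 and Rspo3 was not tested.

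Among 11 receptors and co-receptors tested, 1 rose and 1 fell (18.2%, beside 43.9% of all genes tested). Lrp5, a Wnt co-receptor, rose from 49.8 ± 7.14 to 82.2 ± 10.7 CPM (adjusted p of 0.00667 in edgeR's test), and its relative Lrp6 fell from 67.7 ± 7.23 to 47.9 ± 7.86 CPM (adjusted p of 0.0261). The call of Lrp6 was lost without I/R replicate 1 (0.0977), I/R replicate 3 (0.0765) or I/R+Rk2 replicate 2 (0.0664), and with the trend on transcript length removed (0.168), the highest of a range that began at 0.00931. The list's count of 2 was 1 without each of these 3 libraries and 4 without I/R+Rk2 replicate 1. Lgr4, the broadly expressed R-spondin receptor related to Lgr5, was at 24.3, 27.6 and 28.3 CPM in I/R and at 25.7, 49.6 and 50.7 CPM in I/R+Rk2. Replicate 1 of I/R+Rk2 lay inside the I/R range, and the log2 fold change of 0.65 had an adjusted p of 0.0685, or 0.00142 without that replicate. With all 6 libraries Lgr4 also passed in DESeq2 (0.0261) and with the length trend removed (0.0439), and its adjusted p reached 0.294 over the alternatives. Of 6 secreted or membrane antagonists tested, Notum rose and Frzb fell (33.3% called). Notum, a β-catenin target whose product removes the lipid from Wnt proteins, had 7.30, 9.21 and 11.3 CPM in I/R and 23.6, 21.6 and 19.3 CPM in I/R+Rk2, with a log2 fold change of 1.21 ± 0.17 (SE) and an adjusted p of 0.00213. All 3 I/R+Rk2 libraries lay above the I/R libraries. Frzb, a secreted Frizzled-related protein, fell from 5.44 ± 0.738 to 0.817 ± 0.198 CPM (adjusted p of 0.000483). The exons of Notum and Rspo3 overlap those of antisense genes, and without a stated strand setting the reads of such partners cannot be told apart.

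Between receptor and nucleus, 16 genes of the destruction complex and the Dishevelled family were tested, of which 2 rose and 5 fell. This share, 43.8%, was near the 43.9% of all genes tested, and 4 in all passed without I/R replicate 1. Nkd2 was among the 5 that fell, had enough counts for the test only through I/R, and is also listed among the other Wnt targets. Gsk3b, a kinase that marks β-catenin for degradation, fell by 0.62 on the log2 scale (adjusted p of 0.00449 in edgeR's test), and Dvl3 fell by 0.72 (0.00307). The β-catenin-binding ubiquitin ligase subunits went in opposite directions, Btrc rising from 6.84 ± 0.546 to 11.5 ± 0.424 CPM (0.00293) and Fbxw11 falling from 60.5 ± 5.66 to 36.2 ± 3.78 CPM (0.00267). Btrc did not pass with limma on the filtered FPKM, with log2 fold changes of 0.33 and 0.54 (adjusted p of 0.0538 and 0.0633) beside 0.75 in edgeR. Apc, the scaffold of the complex, was at 3.91, 9.64 and 16.5 CPM in I/R and 1.01, 8.35 and 9.40 CPM in I/R+Rk2, and the interval of its log2 fold change ran from -2.47 to 1.07 (adjusted p of 0.481). Of 16 TCF/LEF factors and cofactors tested, 2 rose and 5 fell, again 43.8%, and likewise 4 in all passed without I/R replicate 1. Ctnnbip1, which blocks the binding of β-catenin to TCF, rose by 0.82 on the log2 scale (adjusted p of 0.00256), and the coactivator Ep300 fell by 0.88 (0.00250). Of the 2792 exonic bases of Ctnnbip1, 720 are shared with the antisense gene Gm13066, whose reads cannot be told apart either. Tcf7l2, the main TCF factor of hepatocytes, was at 6.24 ± 1.57 and 9.08 ± 1.12 CPM (adjusted p of 0.0758), and passed with the length trend removed (0.0363) and with the replicate block (0.0386), in a range of up to 0.517. None of 5 adherens junction partners of β-catenin passed, 1 had an unadjusted p below 0.05, DESeq2 called none, and 1 passed without I/R+Rk2 replicate 1.

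**Figure D4:**
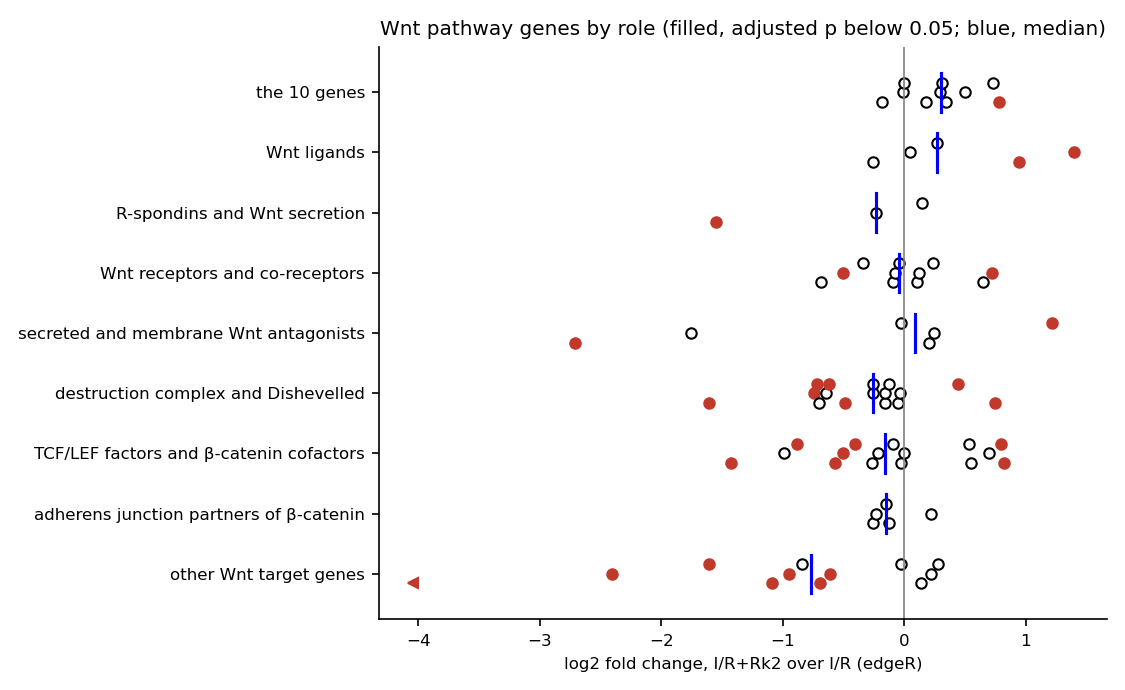
Log2 fold change (I/R+Rk2 over I/R) of every tested gene of the Wnt pathway lists, arranged by role, with filled points for genes at an adjusted p below 0.05 in edgeR's test, a blue line for the median of each list and a triangle for Mmp7 at its bound. Rspo3 and Frzb lie far below 0, Notum and Wnt2 far above 0, and the median of the destruction complex genes is -0.26.

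Of 12 other Wnt target genes tested, 7 fell and none rose (58.3%, beside 43.9% of all genes tested). Mmp7 and Nkd2 were among those that fell, and both had enough counts for the test only through I/R. Nkd2 had 17, 19 and 25 counts in I/R and 9, 5 and 6 in I/R+Rk2. The direction of such genes was set by the filter, so their calls add no support for a fall of this list. Their median log2 fold change was -0.77, beside 0.30 for the members. Over all alternatives these medians ran from -0.94 to -0.28 and from 0.098 to 0.464, in that order. Cd44 fell from 51.7 ± 20.3 to 9.78 ± 2.82 CPM (adjusted p of 0.00224 in edgeR's test), and Ccn2, listed as Ctgf, fell from 28.7 ± 3.35 to 13.5 ± 0.171 CPM (0.000738). Mmp7 had 57, 57 and 35 counts in I/R and 0 in every I/R+Rk2 library, at least 16.5-fold lower when 3 counts per library were taken as the floor. Several of these genes are also expressed outside hepatocytes. The summed level of 16 monocyte and neutrophil markers was 692 to 828 CPM in I/R and 107 to 239 CPM in I/R+Rk2, and 15 of the 16 fell (93.8%). Of 11 hepatic stellate markers tested 7 fell (63.6%), from a sum of 225 to 287 CPM to 155 to 157 CPM. The part of these cells in the lower targets was not tested.

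The members were then set beside the rest of the pericentral program and its periportal counterpart. Of 25 other pericentral hepatocyte genes, 9 rose and 5 fell (56%, beside 43.9% of all genes tested), with a median log2 fold change of -0.01. The 14 calls became 4 when I/R replicate 3 was left out, 7 when replicate 1 of I/R was, and 8 when replicate 2 of either group was, or with the length trend removed. Glul, glutamine synthetase and the classic β-catenin target of the innermost pericentral cells, was at 559.8, 738 and 676 CPM in I/R and at 566, 572 and 361 CPM in I/R+Rk2. The log2 fold change of -0.40 had an interval from -0.86 to 0.06 (adjusted p of 0.139 in edgeR's test), and replicate 3 of I/R+Rk2 lay below all other libraries. Glul passed as lower with limma on the filtered FPKM (-0.56, adjusted p of 0.0420 and 0.0447 with either pseudocount), and its adjusted p reached 0.320 over the alternatives. Cyp2e1, a pericentral cytochrome P450, was at 2406 ± 281 and 2389 ± 340 CPM (adjusted p of 0.961), and Oat, ornithine aminotransferase, was at 317 ± 51.5 and 273 ± 68.9 CPM (0.424). Cyp1a2, another pericentral P450, rose from 509.9 ± 72.7 to 819 ± 177 CPM (0.0221), a call lost (0.0603 to 0.0762) when I/R replicate 1 or 3 or I/R+Rk2 replicate 1 or 2 was left out, in a range from 0.00183 to 0.0962 over all alternatives. Nr1i3, the xenobiotic receptor CAR, rose by 1.02 on the log2 scale (0.00505). Of its 4414 exonic bases, 3304 are shared with the antisense gene Tomm40l, whose reads cannot be told apart without a stated strand setting. Ahr, the receptor that induces Cyp1a2, fell by 0.94 (0.00215), and Rcan1, a calcineurin inhibitor, fell by 1.48 (0.00454).

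Of 21 periportal hepatocyte genes, 14 rose and 1 fell (71.4%, beside 43.9% of all genes tested), with a median log2 fold change of 0.52. G6pc, the last enzyme of gluconeogenesis, rose from 174 ± 22.1 to 755 ± 195 CPM (adjusted p of 0.000593 in edgeR's test), and Ass1, of the urea cycle, rose from 2114 ± 352 to 3620.5 ± 811 CPM (0.0185). The call of Ass1 was lost (0.0540 to 0.0642) when I/R replicate 1 or 3 or I/R+Rk2 replicate 2 or 3 was left out, in a range from 0.000540 to 0.0642. Cyp2f2, a widely used periportal marker, was at 1108 ± 116 and 1384 ± 127 CPM (0.0622). It passed as higher in DESeq2 (0.0347), with upper-quartile scaling (0.0409) and without I/R replicate 2 (0.0444), in a range of up to 0.495. The 15 calls became 9 when I/R replicate 1 or 3 was left out and 8 when I/R+Rk2 replicate 2 was. Among 12 general hepatocyte markers 6 rose and 2 fell (66.7%), with a median of 0.40. Albumin (Alb) rose by 0.70 on the log2 scale (0.0167), in a range from 4.64e-06 to 0.17. That call was lost (0.0612 to 0.0632) when I/R replicate 1 or I/R+Rk2 replicate 2 or 3 was left out. The medians of the 10 members (0.30), of the other pericentral genes (-0.01) and of the periportal genes (0.52) are descriptions of these lists, and no test between lists was made.

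**Figure D5:**
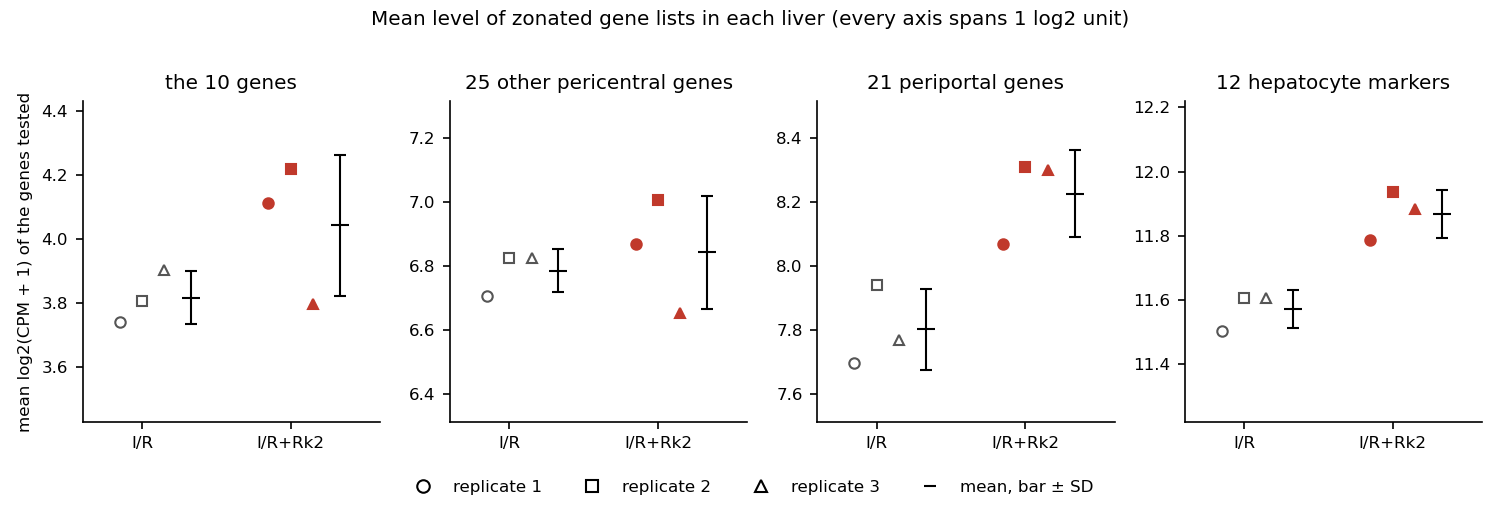
Mean log2(CPM + 1) over the 10 members, 25 other pericentral genes, 21 periportal genes and 12 hepatocyte markers in each library, with the mean and SD of each group, on axes that each span 1 log2 unit. Replicate 3 of I/R+Rk2 is the lowest of its group for the members (3.80) and for the other pericentral genes (6.65), and lies beside replicate 2 for the periportal genes (8.30 and 8.31).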

How the data were processed

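Liver RNA-seq of 6 mice was analysed, 3 per group, each library from 250 ng of RNA of a liver sample. Reads of the BGISEQ-500 platform were aligned by the authors to mm10 with HISAT2 2.2.1 and quantified with StringTie 1.3.3, per the labels and the submitters' processing notes, which also name FastQC 0.11.5. The annotation and the strand setting are not given in the sources used here. The authors deposited raw counts per gene (15454 rows) and FPKM per gene (21948 rows). The deposited FPKM are scaled to transcript length and mapped fragments and were used for levels and as an alternative. Total counts were 16809613 to 35618074 per library, so that 3 counts were 0.0888 to 0.184 CPM, a floor for counting error only.

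Counts were tested with edgeR 4.0.16 (R 4.3.3; TMM scaling, filterByExpr, quasi-likelihood F test, all 6 libraries, no covariate), adjusted over 12411 genes. The SE was the log2 fold change divided by the root of F, and the 95% interval used the t quantile of the test's degrees of freedom. DESeq2 1.42.0 and limma 3.58.1, the latter on log2(FPKM + 1) or log2(FPKM + 0.1), were alternatives, beside other scalings, filters, the replicate block, removal of a trend on transcript length, and each library left out. The fits were tested on simulated data. The members and all gene lists were chosen with earlier results of these data known. Named besides the 10 members were up to 3 genes of smallest p per pathway or zonation list, and fixed genes of the pathway and of zonation. The lists overlap, since Nkd2, Tcf7, Lef1 and Cdh1 each stand in more than 1 of them. Older symbols were matched (Ccn2 to Ctgf). Gene positions are from GENCODE M21 (GRCm38). Exons of Glul, Mmp7, Ahr, Btrc and Cyp2f2 also overlap antisense genes, by 116 to 274 bases. With 3 mice per group, the p-values set the group difference against the variation between mice, estimated with information shared over genes.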

Additional observations from a re-analysis of the deposited data

How the results depend on the processing

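The count of members called was 1 under all alternatives except without I/R+Rk2 replicate 3, where Lect2 also passed, so that it ranged from 1 to 2 over the libraries left out. Estimates near 0 changed sign. For Rhbg they were 0.007 with relative log expression scaling, 0.049 with upper-quartile scaling, 0.008 in DESeq2, 0.002 with the replicate block, and -0.098 to 0.152 with each library left out. For Ctnnb1 they were 0.001, 0.04 and 0 under the first 3 of these, 0.076 with the length trend removed and -0.038 to 0.019 over libraries left out. For Cyp2e1 they were 0.001, 0.042 and 0.001, and -0.132 to 0.086 over libraries left out. Wnt9b was at -0.103 with library size alone, -0.017 on unfiltered FPKM and -0.14 to 0.369 over libraries left out, and Nkd1 at -0.169 on unfiltered FPKM. No pairing of the livers by replicate number was stated. The deviations of same-numbered libraries had correlations of -0.031, 0.048 and -0.024, which with 3 libraries per group cannot exclude a pairing. The replicate block gave 4713 calls over all genes in place of 5454, and 1 member in both. Scaling by library size alone moved the median of all genes to -0.17 and the share of calls that were lower from 53.9% to 72.5%, and the FPKM fits had 69.5% to 72.8% lower. The median of the members stayed above 0 in each, between 0.098 and 0.464. Median log2 fold changes fell from 0.21 over the shortest genes (204 to 2722 bases) to -0.21 over the longest (6744 to 123179). Axin2, Lgr5, Znrf3 and Nkd1 were measured at 17 to 195 counts per library and fell below the FPKM minimum of 1, so their values rest on the counts. Other named genes that lost or gained a call did so in 37 of 585 values.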

Other observations

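The counts and the FPKM of the same library imply a transcript length for each gene, and for some members that length differed between libraries. Rhbg, Lect2 and Rgn gave nearly the same length in all 6 libraries, 2067 to 2074 bases for Rhbg, 930 to 938 for Lect2 and 1704 to 1718 for Rgn. Nkd1 ranged from 1610 to 4388 bases, 2.73-fold, and Rnf43 from 1747 to 4046 bases, 2.32-fold. Znrf3 ranged 1.84-fold, Tbx3 1.63-fold, Axin2 1.40-fold, Lgr5 1.37-fold and Ctnnb1 1.22-fold. Rhbg and Rgn have 1 annotated transcript each and Lect2 has 2, whereas the other members have 3 to 15. Orders of libraries by CPM and by FPKM differed in several members, Rnf43, Znrf3 and Ctnnb1 among them. In Nkd1 the highest library was I/R+Rk2 replicate 2 by CPM (2.96) and I/R replicate 3 by FPKM (1.40). In Rnf43, I/R replicate 2 was the highest I/R library by CPM (10.2) and the lowest by FPKM (2.58). The orders also differed in Rgn, which has 1 transcript. Its I/R+Rk2 replicate 3 lay above replicate 1 by CPM (937 against 885) and below it by FPKM (502.7 against 504.4). The CPM were scaled with TMM factors and the FPKM were not. The part of scaling and of transcript length in these orders was not tested.

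Among marker lists of other liver cells, 4 of 16 endothelial markers rose and 6 fell, 1 of 10 cholangiocyte markers rose and 4 fell (2 in all without any library other than I/R+Rk2 replicate 1), and 2 of 9 Kupffer cell markers fell, all by edgeR's test. The calls made up 62.5%, 50% and 22.2% of these lists, in that order, beside 43.9% of all genes tested. The summed cholangiocyte level was 177 to 242 CPM in I/R and 99.6 to 135 CPM in I/R+Rk2, without overlap, while the Kupffer sums, 232 to 282 and 187 to 279 CPM, overlapped. None of the markers in these lists was at 0 in every library.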
